A study of Mus musculus with 4 samples.

Results

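The 10 genes described here encode the cyclins A1, A2, B1, B2, B3, E1 and E2 (Ccna1, Ccna2, Ccnb1, Ccnb2, Ccnb3, Ccne1 and Ccne2), the cyclin-dependent kinase CDK1 (Cdk1), the phosphatase CDC25C (Cdc25c) and the polo-like kinase PLK1 (Plk1). They were chosen by symbol, 10 of the 55335 genes in the deposited count table, and each symbol occurred once. All 10 passed the filter on low counts that left 24116 genes. The 4 poly(A) RNA libraries came from testes of mice aged 14 days after birth, 2 with the genotype label Znhit1_KO and 2 with the label CTRL. The labels used here give no allele, deleter strain, strain background or treatment for either group, and the design text speaks of germ cells where the sample labels say testis. ZNHIT1 belongs to the SRCAP complex, a remodeller that loads H2A.Z into chromatin, and the study asks how its loss bears on gene expression in pachytene and on male meiosis.

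Cyclins bind and activate cyclin-dependent kinases, and the order in which they appear sets the order of the cell cycle. E-type cyclins act with CDK2 at the start of DNA replication, cyclin A2 in S phase and at entry into mitosis, and B-type cyclins with CDK1 in M phase. CDC25C removes inhibitory phosphates from CDK1, and PLK1 promotes M-phase entry and later steps of division. In the mouse testis cyclin A1 is made in late meiotic prophase spermatocytes, and males without it do not complete the first meiotic division, whereas cyclin A2 is found in dividing spermatogonia and at the onset of meiosis. Cyclin B3 is a cyclin of early meiotic prophase in males. The label of this set joins meiotic and mitotic genes, and apart from Ccna1 and Ccnb3 its members also serve ordinary mitosis.

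The libraries held 157790457 and 136732861 estimated counts in Znhit1_KO replicates 1 and 2, against 129531714 and 136178177 in CTRL replicates 1 and 2. Znhit1 itself stood at 3.15 and 2.14 normalised counts scaled to library size (CPM) in Znhit1_KO, against 17.3 and 31.9 CPM in CTRL, lower in both libraries labelled Znhit1_KO. Plod3 on the other strand shares 529 exonic bases with Znhit1, 28.4% of those of Znhit1. The strandedness of the libraries is not known, so what remains in Znhit1_KO need not all be Znhit1 RNA. Markers of testis cells were present. All 10 Sertoli cell markers and all 10 pachytene spermatocyte markers were detected in every library, while the 6 round spermatid markers summed to 0.184 and 0.180 CPM in Znhit1_KO and to 0.326 and 0.343 CPM in CTRL, with Catsper1 at 0 in every library. In whole testis, fewer cells of a type and less RNA per cell cannot be told apart.

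Per unit of transcript length, in the authors' length-normalised abundance (TPM), Ccna1 was the lowest of the 10 genes in both groups. It averaged 1.92 ± 0.634 TPM in Znhit1_KO and 4.51 ± 2.29 TPM in CTRL (SD, n = 2 each). In Znhit1_KO the order of mean TPM ran from Ccnb1 through Ccnb2, Plk1, Ccna2, Ccne2, Ccnb3, Cdk1, Ccne1 and Cdc25c to Ccna1. In CTRL it ran from Ccnb2 through Ccne2, Ccna2, Ccnb1, Plk1, Ccnb3, Cdk1, Ccne1 and Cdc25c to Ccna1, so the 5 lowest places were held by the same genes in both groups. The replicates of neighbours overlapped for Ccnb1, Ccnb2, Plk1 and Ccna2, and again for Ccne2, Ccnb3 and Cdk1, in Znhit1_KO. In CTRL they overlapped for Ccnb2 and Ccne2, for Ccnb1 and Plk1, and for Ccnb3 and Cdk1. The 7 cyclins summed to 293.5 and 402.0 TPM in Znhit1_KO and to 354.9 and 402.7 TPM in CTRL, and these sums overlapped between groups.

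**Figure D1:**
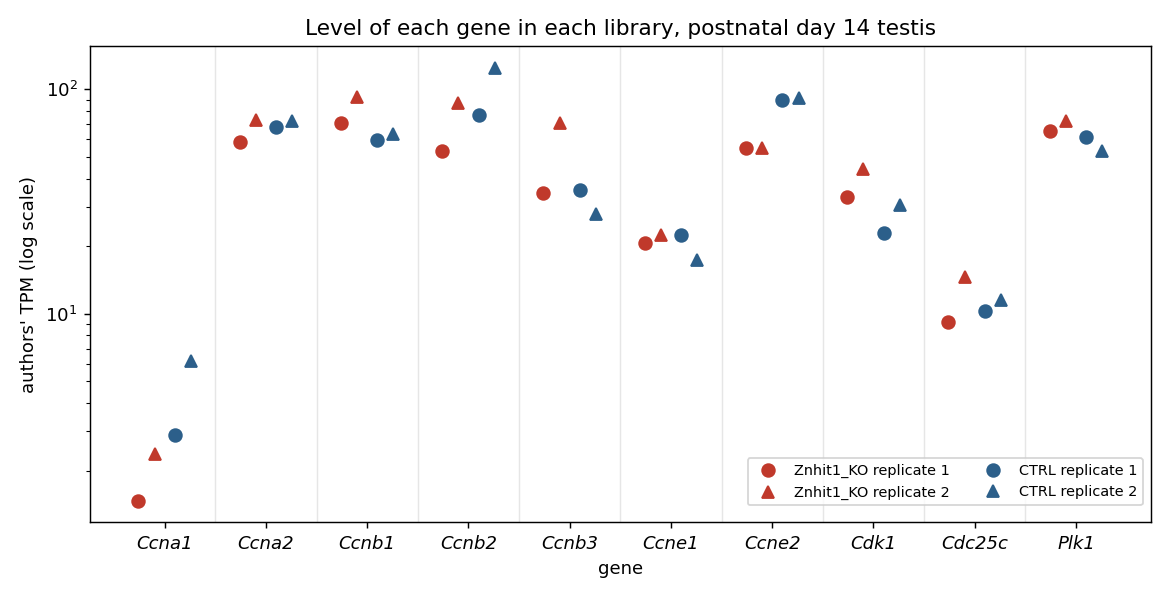
Authors' TPM (vertical log axis) of the 10 genes in each library, with Znhit1_KO in red on the left of each gene, CTRL in blue on the right, circles for replicate 1 and triangles for replicate 2. Ccna1 lies lowest in every library. Red and blue points do not overlap for Ccna1 and Ccne2, lower in Znhit1_KO, and for Ccnb1, Cdk1 and Plk1, higher in Znhit1_KO. In CPM, 21.3% of all genes tested were lower and 21.8% higher in both Znhit1_KO libraries.

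No gene of the 10 passed the edgeR quasi-likelihood test at an adjusted p of 0.05 over all genes, where 0% of the 24116 genes passed. The adjusted p-values of the 10 lay between 0.264 and 0.943. At an unadjusted p under 0.05 there were 2 of the 10, Ccna1 and Ccne2, both lower in Znhit1_KO; by that rule 7.75% of all genes were lower, 2.99% higher and 10.7% either. DESeq2 called 1 of the 10, Ccne2, which was lower; of all genes it called 3.86% lower, 0.46% higher and 4.32% in total. The authors' deposited table has 1 of the 10, Ccne2, under an adjusted p of 0.05, where 3.67% of its genes were lower, 0.404% higher and 4.07% either. Its mark of change asks for more than that p, since Ccne2 does not carry it. That table marks 0 of the 10 as changed, where it marks 3.22% of its genes lower, 0.277% higher and 3.5% in total. In these libraries limma-voom called 0 of the 10 and 0% of all genes. In CPM the groups were separate, with Znhit1_KO lower, for 2 of the 10 (Ccna1 and Ccne2), against 21.3% of all genes, and with Znhit1_KO higher for 3 (Ccnb3, Cdk1 and Plk1), against 21.8%. These counts are near those shares. In TPM, and in CPM scaled by total count, the 2 lower genes were the same and the 3 higher ones were Ccnb1, Cdk1 and Plk1. The median log2 change was 0.091 for the 10 genes and 0.031 for all genes tested.

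**Figure D2:**
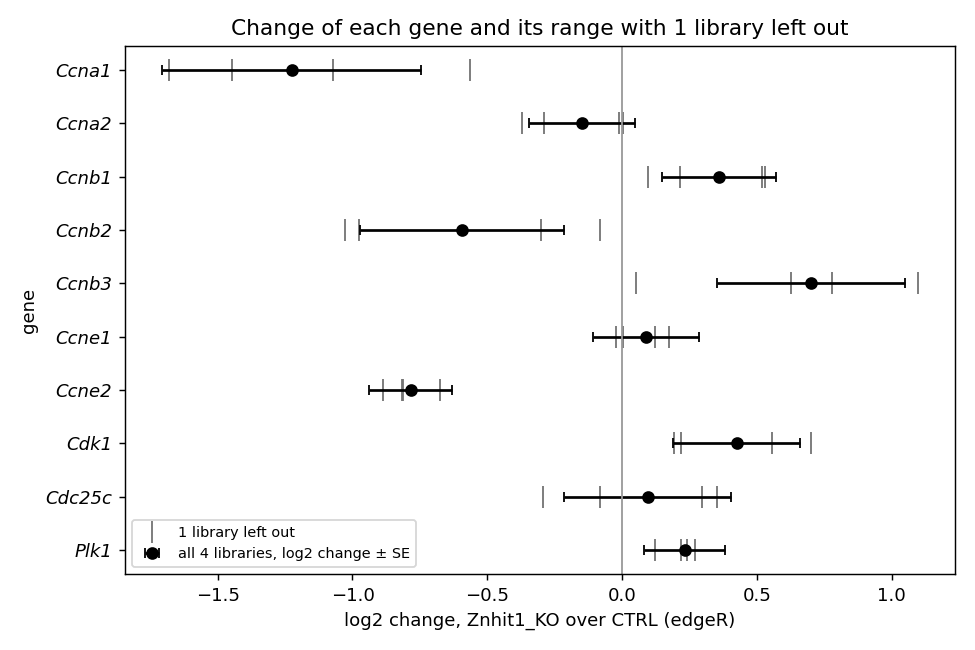
Log2 change of each gene, Znhit1_KO over CTRL (horizontal axis), from edgeR with all 4 libraries (points with SE bars) and with 1 library left out (grey ticks). Ccne2 keeps to between -0.89 and -0.67 whichever library is left out, while Ccnb3 runs between 0.053 and 1.1 and Ccnb2 between -1.03 and -0.081.

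The promoters of Ccna1 and Ccnb2, whose log2 changes were negative, and of Ccnb1 and Cdk1, whose log2 changes were positive, are shown from 250 bases before to 50 bases after the RefSeq start site (build GRCm38.p6, minus strand for all 4). They lie at chr3:55055006-55055305 for Ccna1, chr9:70421505-70421804 for Ccnb2, chr13:100786437-100786736 for Ccnb1 and chr10:69352863-69353162 for Cdk1. Capitals mark the CCAAT box (CCAAT, or ATTGG on the other strand) and the cell cycle homology region (TTTGAA, or TTCAAA on the other strand), the element through which DREAM and MYB-MuvB complexes act on many M-phase genes.
Ccna1: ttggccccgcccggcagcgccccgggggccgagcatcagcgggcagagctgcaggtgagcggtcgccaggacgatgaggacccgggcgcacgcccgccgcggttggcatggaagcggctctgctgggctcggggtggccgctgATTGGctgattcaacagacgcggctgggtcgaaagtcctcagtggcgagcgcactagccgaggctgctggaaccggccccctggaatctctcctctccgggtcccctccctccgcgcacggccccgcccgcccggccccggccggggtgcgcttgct
Ccnb2: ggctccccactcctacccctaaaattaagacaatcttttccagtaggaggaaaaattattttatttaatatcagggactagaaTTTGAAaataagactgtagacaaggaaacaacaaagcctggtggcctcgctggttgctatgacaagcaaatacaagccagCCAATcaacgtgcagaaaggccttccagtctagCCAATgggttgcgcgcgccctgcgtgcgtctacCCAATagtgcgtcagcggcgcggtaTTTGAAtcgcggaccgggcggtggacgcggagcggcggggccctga
Ccnb1: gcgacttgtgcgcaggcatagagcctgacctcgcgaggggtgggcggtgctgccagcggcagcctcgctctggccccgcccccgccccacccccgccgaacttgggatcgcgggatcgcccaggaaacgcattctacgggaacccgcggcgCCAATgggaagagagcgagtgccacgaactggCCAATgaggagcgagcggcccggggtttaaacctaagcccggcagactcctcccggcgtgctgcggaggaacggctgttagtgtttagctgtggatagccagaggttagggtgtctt
Cdk1: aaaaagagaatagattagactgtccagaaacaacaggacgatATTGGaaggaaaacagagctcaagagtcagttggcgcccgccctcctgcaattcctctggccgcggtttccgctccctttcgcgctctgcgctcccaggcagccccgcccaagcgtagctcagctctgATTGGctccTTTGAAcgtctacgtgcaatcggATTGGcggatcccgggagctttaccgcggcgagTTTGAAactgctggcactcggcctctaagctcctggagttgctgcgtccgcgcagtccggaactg
Promoters of 7 of the 10 genes matched by symbol; Ccna2, Ccne2 and Cdc25c had no entry. TTTGAA on either strand was found in 3 of the 7 (Plk1, Ccnb2 and Cdk1) and in 17.9% of 32851 promoters of the same length. Other spellings of the element were not searched, so a window without TTTGAA, such as that of Ccnb1, may still hold it. CCAAT on either strand was found in 5 of the 7 (Ccna1, Plk1, Ccnb2, Cdk1 and Ccnb1) and in 37.4% of all. The MYB site TAACNG, with CNGTTA on the other strand, was found in Ccnb1 and Ccnb3, and in 23.3% of all. The motifs do not overlap each other within the printed promoters. Ccnb2 held TTTGAA at positions -167 and 5 from the start site and Cdk1 at -71 and -15. Whether these motifs bear on the log2 changes was not tested. The Ccna1 window held 1 CCAAT box, at -107, and none of the TTTGAA letters. It lies wholly inside the annotated gene, which begins at 55055501 on the minus strand. The windows of Ccnb2, Ccnb1 and Cdk1 extend past the annotated starts of their genes. The sequence before the annotated start of Ccna1 was therefore not searched, and the windows are not alike in this.

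Ccna1 (ENSMUSG00000027793.6, chromosome 3, 55045469 to 55055501, mm10) had 0.931 and 1.20 CPM in Znhit1_KO replicates 1 and 2, against 1.58 and 3.41 CPM in CTRL replicates 1 and 2. All 4 values were low, both Znhit1_KO values lay below both CTRL values, and CTRL replicate 2 stood well above the rest. The underlying estimated counts were 147 and 167 in Znhit1_KO and 213 and 438 in CTRL. Its log2 change was -1.23 (SE 0.480); the edgeR p was 0.048 unadjusted and 0.463 adjusted. The authors' deposited table gives -1.23, adjusted p 0.211, and does not mark Ccna1 as changed. Leaving out CTRL replicate 2 gave -0.56 and leaving out CTRL replicate 1 gave -1.68. An antisense transcript, 4931419H13Rik, shares 185 exonic bases with Ccna1, and had at most 0.374 CPM in any library.

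Ccna2 (ENSMUSG00000027715.9, chromosome 3, 36564865 to 36572150, mm10) had 66.6 and 84.9 CPM in Znhit1_KO, against 75.7 and 92.3 CPM in CTRL. The groups overlapped, and in each group replicate 2 was the higher library. Its log2 change was -0.15 (SE 0.196), within its standard error, with an adjusted edgeR p of 0.826. It was 0.0017 without CTRL replicate 2. Exosc9 on the other strand shares 510 exonic bases with Ccna2, 12.5% of those of Ccna2, and the strandedness of the libraries is not known. Exosc9 had 21.1 and 28.6 CPM in Znhit1_KO, against 27.3 and 39.3 CPM in CTRL, values that overlapped.

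Set against each other within a library, Ccna1 amounted to 2.54% and 3.24% of the TPM of Ccna2 in Znhit1_KO, against 4.26% and 8.47% in CTRL. Neither Znhit1_KO ratio reached the lower of the CTRL ratios. The log2 ratio of their counts averaged -6.15 ± 0.0143 in Znhit1_KO and -5.17 ± 0.585 in CTRL (SD, n = 2 each), a difference of -0.98, or 0.507 times the CTRL ratio. In the exact two-sided permutation test p was 0.333, the smallest value that 2 against 2 libraries allow. A ratio within a library does not depend on how libraries were scaled to each other. Leaving out CTRL replicate 2 gave a difference of -0.57 and leaving out CTRL replicate 1 one of -1.39; CTRL replicate 2 held the highest ratio.

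**Figure D3:**
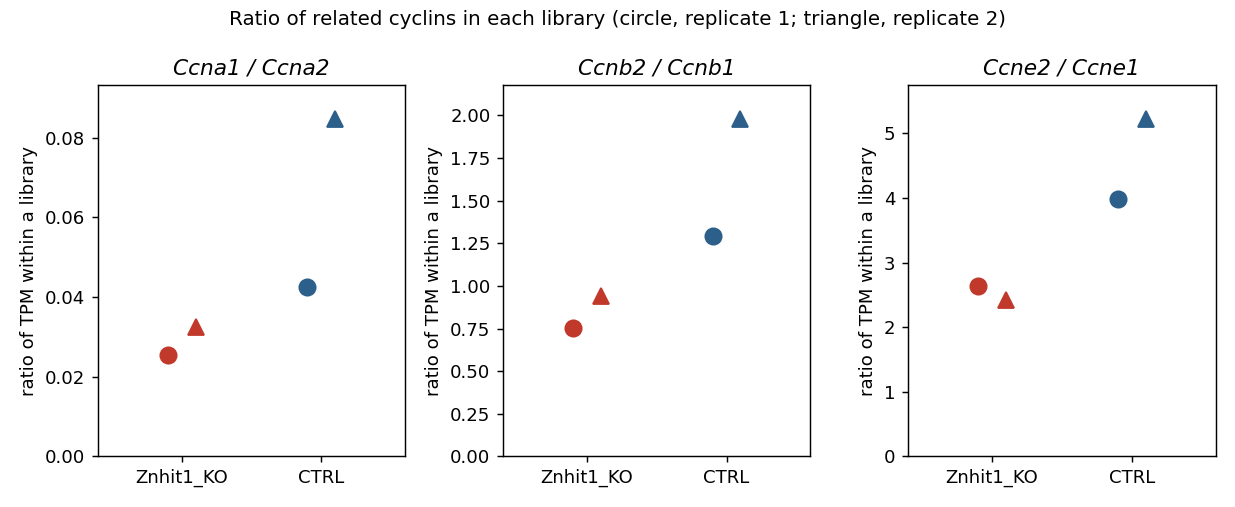
Ratio of TPM of 2 related cyclins within each library (vertical axis from 0), for Ccna1 over Ccna2, Ccnb2 over Ccnb1 and Ccne2 over Ccne1, with Znhit1_KO in red on the left and CTRL in blue on the right. In each panel both Znhit1_KO points lie below both CTRL points, at 0.0254 and 0.0324 against 0.0426 and 0.0847 for Ccna1 over Ccna2. In each pair the numerator is the gene with the lower log2 change, so the shared direction follows from the choice of numerator.

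Among the B-type cyclins, Ccnb1 (ENSMUSG00000041431.16, chromosome 13, 100778650 to 100786570), the main M-phase cyclin, had 65.6 and 88.1 CPM in Znhit1_KO, against 53.7 and 66.1 CPM in CTRL. Znhit1_KO replicate 1 and CTRL replicate 2 were almost level, so the groups overlapped in CPM. In TPM they did not, with 70.8 and 92.3 TPM in Znhit1_KO and 59.7 and 63.1 TPM in CTRL. Ccnb1 had a log2 change of 0.36 (SE 0.213), with an adjusted edgeR p of 0.605. The annotated copy Ccnb1-ps had 0.614 and 1.04 CPM in Znhit1_KO and 0.652 and 0.685 CPM in CTRL, and how reads were divided between the copies is uncertain.

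Ccnb2 (ENSMUSG00000032218.7, chromosome 9, 70407692 to 70421547), a B-type cyclin without which mice are viable, had 32 and 52.7 CPM in Znhit1_KO, against 44.8 and 83.0 CPM in CTRL. The groups overlapped, and replicate 2 was the higher library in both. The log2 change was -0.59 (SE 0.378), with an adjusted edgeR p of 0.630, and it was -0.081 without CTRL replicate 2. The annotated copy Ccnb2-ps stood at 1.77 and 0.778 CPM in Znhit1_KO and 1.24 and 0.646 CPM in CTRL.

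Ccnb2 and Ccnb1 had log2 changes of opposite sign. The Ccnb2 TPM was 0.752 and 0.942 times that of Ccnb1 in Znhit1_KO, against 1.29 and 1.98 times in CTRL, so Ccnb1 was the more abundant of the 2 in both Znhit1_KO libraries and Ccnb2 in both CTRL libraries. The log2 ratio of their counts averaged -0.89 ± 0.209 in Znhit1_KO and 0.034 ± 0.416 in CTRL (SD, n = 2 each), a difference of -0.92, with an exact permutation p of 0.333. The difference lay between -1.22 and -0.63 with 1 library left out.

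Ccnb3 (ENSMUSG00000051592.14, chromosome X, 6979652 to 7041619) lies on the X chromosome, which is silenced in pachytene spermatocytes. It had 61.9 and 127.0 CPM in Znhit1_KO, against 61.3 and 54.9 CPM in CTRL. Znhit1_KO replicate 2 stood apart, while Znhit1_KO replicate 1 was level with CTRL replicate 1. In TPM the groups overlapped, at 34.7 and 70.4 TPM in Znhit1_KO and 35.4 and 27.8 TPM in CTRL. The log2 change was 0.70 (SE 0.348), with an adjusted edgeR p of 0.544, and without Znhit1_KO replicate 2 it was 0.053. Of the summed TPM of the 7 cyclins, Ccnb3 made up 11.8% and 17.5% in Znhit1_KO and 9.98% and 6.90% in CTRL.

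The E-type cyclins differed from each other. Ccne2 (ENSMUSG00000028212.16, chromosome 4, 11191351 to 11204779) had 61.5 and 61.3 CPM in Znhit1_KO, against 98.1 and 113 CPM in CTRL. The 2 Znhit1_KO values were nearly equal and lay far below both CTRL values. For Ccne2 the log2 change was -0.78 (SE 0.153); the edgeR p was 0.00307 unadjusted and 0.264 adjusted, equal to the lowest adjusted p over all genes. DESeq2 gave an adjusted p of 0.00475. The authors' deposited table gives Ccne2 -0.79 on the log2 scale, adjusted p 0.0156, and does not mark the gene as changed. It does mark Aurkc, at -1.56 and an adjusted p of 0.0472, so the mark asks for more than that p. The missing mark is therefore no sign that Ccne2 was unchanged.

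Ccne2 shares 609 exonic bases, 17.4% of its own, with Ints8 on the other strand, and no source used here gives the strandedness of the libraries. Ints8 stood at 121 and 111 CPM in Znhit1_KO and 139 and 118 CPM in CTRL, values that overlapped. Ccne1 (ENSMUSG00000002068.16, chromosome 7, 38097984 to 38107534) had 15.9 and 17.5 CPM in Znhit1_KO, against 16.7 and 14.8 CPM in CTRL, and these values overlapped. Its log2 change was 0.087 (SE 0.196), with an adjusted edgeR p of 0.908.

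Ccne2 was the more abundant E-type cyclin in every library, at 2.64 and 2.42 times the TPM of Ccne1 in Znhit1_KO and 3.99 and 5.23 times in CTRL. The log2 ratio of their counts averaged 1.88 ± 0.101 in Znhit1_KO and 2.75 ± 0.271 in CTRL (SD, n = 2 each). The difference of -0.87 gave an exact permutation p of 0.333 and lay between -1.06 and -0.68 with 1 library left out. None of the 3 ratios compared could reach a p below 0.333, before any adjustment over the 3. No share of separate groups over other gene pairs was computed. In each of the 3 pairs the numerator was the gene with the lower log2 change, so their shared direction follows from the choice of numerator. E-type cyclins together made up 25.7% and 19.2% of the summed cyclin TPM in Znhit1_KO, against 31.5% and 26.9% in CTRL.

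Cdk1 (ENSMUSG00000019942.13, chromosome 10, 69335146 to 69352938), the catalytic partner of the B-type cyclins, had 50.2 and 63.2 CPM in Znhit1_KO, against 34.9 and 49.5 CPM in CTRL. Both Znhit1_KO values were the higher ones, though Znhit1_KO replicate 1 exceeded CTRL replicate 2 only narrowly. The log2 change was 0.43 (SE 0.235), with an adjusted edgeR p of 0.582.

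Plk1 (ENSMUSG00000030867.7, chromosome 7, 122159439 to 122169873) had 56.5 and 62.4 CPM in Znhit1_KO, against 51.1 and 50.2 CPM in CTRL. The groups did not overlap, and the difference was small, at 0.23 on the log2 scale (SE 0.150; adjusted edgeR p 0.634). Cdc25c (ENSMUSG00000044201.10, chromosome 18) had 7.32 and 11.4 CPM in Znhit1_KO, against 7.64 and 9.91 CPM in CTRL. Here replicate 2 exceeded replicate 1 in both groups and the groups overlapped, and the log2 change was 0.095 (SE 0.309; adjusted edgeR p 0.943).

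The replicates of a group differed in a way that many of the 10 genes shared. Replicate 2 was above replicate 1 for 9 of the 10 genes in Znhit1_KO and for 7 of the 10 in CTRL, where the shares over all genes were 49.0% and 53.0%. Markers of germ cell stages also differed between the libraries. The 10 pachytene spermatocyte markers summed to 657 and 1016 CPM in Znhit1_KO, against 1375 and 2869 CPM in CTRL, and all 10 were lower in both Znhit1_KO libraries. This sum and Ccna1 had the same order over the 4 libraries, lowest in Znhit1_KO replicate 1 and highest in CTRL replicate 2. The 8 markers of early meiotic prophase summed to 1246 and 1826 CPM in Znhit1_KO and to 1667 and 2479 CPM in CTRL. Of these markers, 3 were lower in both Znhit1_KO libraries. Over all genes tested 21.3% were lower in both, the share to set beside the pachytene and the early prophase counts.

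Relative to the pachytene marker sum of the same library, Ccna1 stood at 0.142% and 0.118% in Znhit1_KO, against 0.115% and 0.119% in CTRL, values that overlapped. Hspa2 was the largest part of the sum in every library, with 447 and 592 CPM in Znhit1_KO, against 699.7 and 1225 CPM in CTRL. It made up most of the sum in Znhit1_KO but not in CTRL replicate 2, where the sum was 2869 CPM. There Piwil1 added 774 CPM and Ldhc 483 CPM. The log2 change of Hspa2, -0.89, was the nearest to 0 of the 10 markers. The median log2 change of the 10 markers was -2.32 and the lowest was -4.12, for Adam3, against -1.23 for Ccna1, so Ccna1 was level with the summed markers but not with their median. Ccne2 stood at 9.35% and 6.04% of that sum in Znhit1_KO and at 7.14% and 3.95% in CTRL, and Ccnb2 at 4.86% and 5.19% in Znhit1_KO and at 3.26% and 2.89% in CTRL. Ccna2 stood at 10.1% and 8.35% in Znhit1_KO and at 5.51% and 3.22% in CTRL. On this scale all 10 genes had a higher mean log2 ratio in Znhit1_KO, by between 0.15 for Ccna1 and 1.89 for Ccnb3. The scale was chosen after the values were seen, and its markers were already known to be low in Znhit1_KO, so a low divisor raises every ratio there.

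The 10 Sertoli cell markers summed to 7464 and 6167 CPM in Znhit1_KO, against 5284 and 5459 CPM in CTRL. Of the 10, 8 were higher in both Znhit1_KO libraries. Over all genes tested 21.8% were higher in both, the share to set beside this count and the Leydig count that follows. Leydig cell markers summed to 231 and 242 CPM in Znhit1_KO and 169.6 and 169.9 CPM in CTRL, with 4 of 6 higher in both. That sum rests mostly on Nr5a1, with a log2 change of 0.40, while the steroid enzyme gene Cyp17a1 had 5.97 and 5.33 CPM in Znhit1_KO, against 1.00 and 0.833 CPM in CTRL, and Cyp11a1 had 6.71 and 18.7 CPM in Znhit1_KO, against 2.96 and 2.55 CPM in CTRL. DESeq2 called both of these genes, and edgeR neither. Macrophage markers summed to 23.4 and 44.1 CPM in Znhit1_KO and 15.6 and 27.5 CPM in CTRL, and these sums overlapped. The sums for undifferentiated spermatogonia were 259.6 and 281 CPM in Znhit1_KO and 203 and 278 CPM in CTRL, and for differentiating spermatogonia 359 and 421 CPM in Znhit1_KO and 440.0 and 504 CPM in CTRL. Endothelial markers summed to 71.6 and 76.8 CPM in Znhit1_KO and 59.9 and 65.8 CPM in CTRL, and peritubular myoid markers to 807 and 640.2 CPM in Znhit1_KO and 717 and 763 CPM in CTRL. The part of cell composition in the values of the 10 genes was not tested.

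**Figure D4:**
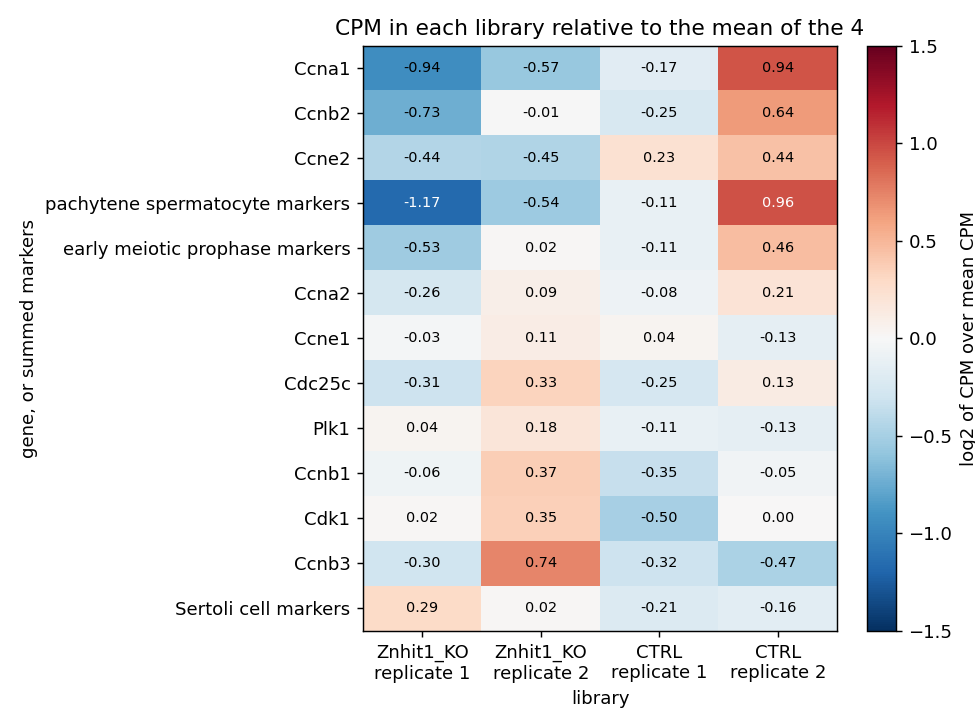
Log2 of the CPM in each library over the mean of the 4 libraries, for the 10 genes and for the summed CPM of 3 marker lists, with Znhit1_KO in the 2 left columns and CTRL in the 2 right ones. Ccna1 runs -0.94, -0.57, -0.17 and 0.94 over the columns and the pachytene markers -1.17, -0.54, -0.11 and 0.96, while Ccnb3 is high in Znhit1_KO replicate 2 alone, at 0.74.

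Genes that act around these cyclins were taken from 6 lists of the same pathway, and edgeR called 0 genes in any of them at an adjusted p of 0.05. DESeq2 called 1 gene over the 6 lists, Cdkn1c, where it called 4.32% of all genes, and limma-voom called 0. The counts that follow stand beside 7.75% lower and 2.99% higher among all genes at an unadjusted edgeR p under 0.05, and 21.3% lower and 21.8% higher in both Znhit1_KO libraries. Among 29 other cyclins and cyclin-dependent kinases, 1 was lower and 0 higher at an unadjusted edgeR p under 0.05, 5 were lower and 10 higher in both Znhit1_KO libraries, and the median log2 change was 0.093. Ccnh, the cyclin of the CDK-activating kinase, had 41.8 and 46.1 CPM in Znhit1_KO, against 53.1 and 79.8 CPM in CTRL. The log2 changes of Ccnl2, a cyclin linked to splicing (0.38, SE 0.154), Cdk16 (0.39, SE 0.183) and Ccni (-0.50, SE 0.243) had unadjusted p-values above 0.05.

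Among 21 activators and inhibitors of these kinases, 1 was lower and 2 higher at an unadjusted edgeR p under 0.05, and the median log2 change was -0.083. Cdkn1c, which encodes the inhibitor p57, had 25.3 and 36.4 CPM in Znhit1_KO, against 9.72 and 8.96 CPM in CTRL, and is marked higher in the authors' deposited table. Cdkn1a, which encodes the inhibitor p21, had 12.5 and 10.5 CPM in Znhit1_KO, against 7.56 and 6.15 CPM in CTRL, with a log2 change of 0.75 (SE 0.243). Spdya, the CDK2 activator that anchors CDK2 at meiotic telomeres, had 28.2 and 33.6 CPM in Znhit1_KO, against 42.1 and 56.2 CPM in CTRL. For these 3 genes the groups did not overlap, but they were named for having the lowest p in the list, which favours separate groups. Of the 21 genes, 6 were lower and 6 higher in both Znhit1_KO libraries, against 21.3% and 21.8% of all genes tested. The adjusted edgeR p-values were 0.264 for Cdkn1c, 0.387 for Cdkn1a and 0.380 for Spdya. Ensa, the gene of highest mean CPM in this list, had a log2 change of -0.16 (SE 0.214).

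The 16 M-phase kinases had the lowest median of the 6 lists, -0.30, with 3 lower and 0 higher at an unadjusted edgeR p under 0.05, and 7 lower and 4 higher in both Znhit1_KO libraries. Over all genes these shares were 7.75% and 2.99% by p and 21.3% and 21.8% by separation. Aurkc, the Aurora kinase of germ cells, had 0.772 and 0.490 CPM in Znhit1_KO, against 1.5 and 2.2 CPM in CTRL, and is marked lower in the authors' deposited table. Plk4, the kinase of centriole duplication, had 62.8 and 65.4 CPM in Znhit1_KO, against 86.4 and 91.5 CPM in CTRL. Haspin, a histone H3 kinase, had 15.1 and 18.2 CPM in Znhit1_KO, against 21.6 and 40.2 CPM in CTRL. The adjusted edgeR p-values were 0.338 for Aurkc, 0.361 for Plk4 and 0.45 for Haspin. Tlk2, the gene of highest mean CPM in this list, had a log2 change of -0.41 (SE 0.240), and the median of the list was -0.086 without CTRL replicate 2.

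Of 24 genes of the anaphase-promoting complex and the spindle checkpoint, 0 were lower and 1 was higher at an unadjusted edgeR p under 0.05, with a median log2 change of -0.075. The higher one was Ube2c, a ubiquitin-conjugating enzyme that works with the complex, at 37.9 and 38.9 CPM in Znhit1_KO, against 28.3 and 29.2 CPM in CTRL. The subunit genes Anapc10 (-0.35, SE 0.176), Anapc15 (-0.34, SE 0.200) and Anapc1 (0.047, SE 0.146) had unadjusted p-values above 0.05. Among 20 regulators of cyclin transcription, 2 were lower and 0 higher by that rule, and the median was -0.085. These were Rbl1, a pocket protein of the DREAM complex, at 52.3 and 62.7 CPM in Znhit1_KO, against 83.1 and 96.2 CPM in CTRL, and Lin9, a MuvB subunit, at 35.9 and 44.3 CPM in Znhit1_KO, against 51.3 and 66.1 CPM in CTRL. E2f1 (0.41, SE 0.170) and Tcfl5 (-0.61, SE 0.336) had log2 changes of opposite sign. Mybl1, the meiotic MYB factor A-MYB, which was named for its role after its values were seen, had 94.1 and 99.9 CPM in Znhit1_KO, against 109 and 131 CPM in CTRL.

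The 20 proliferation genes had a median log2 change of -0.0080, with 4 lower and 4 higher in both Znhit1_KO libraries and 0 genes in either direction at an unadjusted edgeR p under 0.05. Birc5 (-0.36, SE 0.169), Kif11 (-0.24, SE 0.149), Mcm3 (-0.20, SE 0.136) and Top2a (-0.11, SE 0.171) had small log2 changes. The 20 genes summed to 3183 and 3315 CPM in Znhit1_KO and 3380 and 3236 CPM in CTRL, which overlapped.

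**Figure D5:**
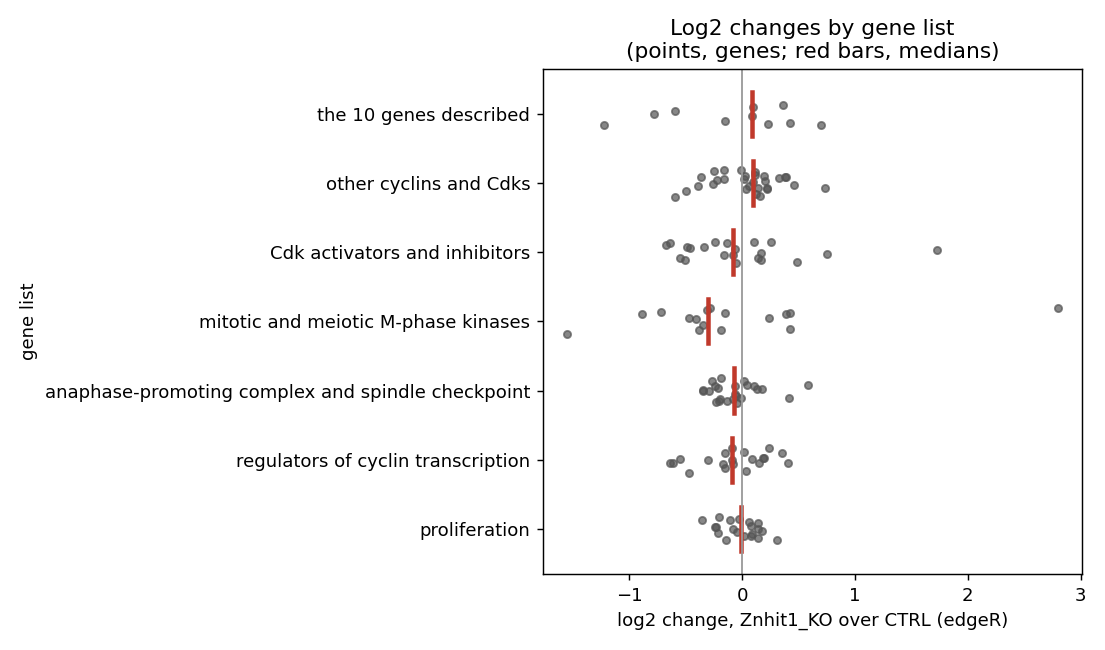
Log2 change of each tested gene, Znhit1_KO over CTRL (horizontal axis, edgeR), for the 10 genes described and for 6 lists of related genes, with red bars at the medians. The medians run from -0.30 for the M-phase kinases to 0.093 for the other cyclins; the point near 2.8 is Mos, which had at most 0.137 CPM in any library and no count in CTRL replicate 2.

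The profile of Ccna1 over the 4 libraries was most like those of Morn4, Dnah7a, Dnaaf1, Hdgfl1 and Irak1bp1, with Euclidean distances between centred log2 CPM profiles of 0.039, 0.091, 0.104, 0.122 and 0.127. Of 10988 protein-coding genes compared, 39 lay within a distance of 0.25 of Ccna1. Dnah7a encodes an axonemal dynein heavy chain and Dnaaf1 a dynein assembly factor, and Dnah7a had 29.4 and 37.8 CPM in Znhit1_KO, against 46.0 and 102 CPM in CTRL. For Ccna2, 1775 genes lay within that distance, the nearest being Phf5a, Stag1, Izumo4, Rbm8a and Fbxo45, at 0.0043, 0.019, 0.023, 0.030 and 0.032. With 4 libraries, many genes share a profile, and the 2 sets are given as a description.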

How the data were processed

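Poly(A) RNA of whole testes was sequenced in 2 Znhit1_KO and 2 CTRL libraries, described per the labels' protocols as independent biological replicates. The submitters' processing notes list mm10 and, as tools of the authors, HISAT2 2.2.1, StringTie 2.2.1, cutadapt 2.5 and DESeq2 1.38.3; no source used here gives their settings, the strandedness or the annotation. The deposited values were taken as estimated counts, in whole numbers summing to between 129531714 and 157790457 a library; since they need not be numbers of reads, no counting intervals are given. The authors' deposited comparison table holds TPM, mean normalised signal, log2 fold changes with standard errors and Wald statistics as scores, p-values and adjusted p-values for 25236 genes.

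Counts were tested with edgeR 4.0.16 in R 4.3.3 (quasi-likelihood F-test, TMM, filterByExpr, genotype only, Benjamini-Hochberg adjustment over all 24116 genes); the common biological coefficient of variation was 0.349. Standard errors were taken from the F statistic. CPM used the TMM factors, and log2 CPM, used for profile distances, a prior count of 2. DESeq2 1.42.0, limma 3.58.1 (voom), other scalings, no filter, a replicate block and leaving out each library were alternatives. Ratios within a library were compared by exact permutation over libraries. The edgeR, DESeq2 and limma fits were checked on simulated data, where DESeq2 made more false calls than edgeR or limma. The simulation drew its counts from the edgeR dispersion trend, with no difference shared by same-numbered libraries. The order of false calls may therefore differ in these data.

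Members, lists, markers and tests were chosen with earlier results of these data known. Named genes were all 10 members, Znhit1, the 3 genes of lowest p and the gene of highest mean CPM in each pathway list, and the 5 protein-coding genes (clone names left out, mean of at least 5 CPM) nearest in profile to Ccna1 and to Ccna2, with rows that look like copies of a member. Genes whose exons overlap those of a member or of Znhit1 were named after their values were seen, as were Mybl1, Mos and single cell type markers. Positions came from GENCODE M21 and promoters from RefSeq (GRCm38.p6). Replicates were compared before averaging and none were duplicates: 3.63% of genes detected in both libraries had equal counts in the Znhit1_KO pair and 3.52% in the CTRL pair.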

Additional observations from a re-analysis of the deposited data

How the results depend on the processing

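With 1 library left out, the differences in log2 ratio ranged from -1.39 to -0.57 for Ccna1 to Ccna2, -1.22 to -0.63 for Ccnb2 to Ccnb1 and -1.06 to -0.68 for Ccne2 to Ccne1. Their sign could not turn, since the groups did not overlap, and pairing same-numbered libraries cannot move a mean difference, so neither is a sign of stability. Over all genes, edgeR called 0, and DESeq2 called 1041; with 1 library left out edgeR called between 0 and 754 (754 without CTRL replicate 1). Of the 10 genes, DESeq2 called 1 and the leave-one-out fits 0 to 0. The 2 pairs of same-numbered libraries deviated from their group means with a correlation of 0.421 over 24116 genes, but no label says that the numbers mark a shared litter or day. In log2 CPM, CTRL replicate 1 had a Pearson correlation of 0.972 with Znhit1_KO replicate 1, 0.968 with Znhit1_KO replicate 2 and 0.969 with CTRL replicate 2. CTRL replicate 2 had 0.942 and 0.961 with Znhit1_KO replicates 1 and 2, and the Znhit1_KO pair had 0.974. With the replicate block edgeR called 2737 genes, 11.3% of those tested, and 3 of the 10: Ccnb2 (-0.57, adjusted p of 0.0175), Ccne2 (-0.78, adjusted p of 0.00521) and Cdk1 (0.44, adjusted p of 0.0418).

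Signs of small changes turned with 1 library left out: Ccna2 ranged from -0.37 to 0.0017, Ccne1 from -0.023 to 0.17 and Cdc25c from -0.29 to 0.35. Divided by the pachytene marker sum, a choice made after seeing the data, the differences of Ccna1 (0.15), Ccna2 (1.13), Ccnb2 (0.71) and Ccne2 (0.50) turned positive. List medians ranged with 1 library left out from -0.066 to 0.14 for other cyclins and Cdks, -0.15 to 0.083 for activators and inhibitors, -0.48 to -0.086 for M-phase kinases, -0.20 to 0.0058 for the anaphase-promoting complex and checkpoint, -0.13 to -0.045 for regulators of transcription and -0.13 to 0.0073 for proliferation. Of 193 comparisons of a result with an alternative, 168 were labelled the same. Genes were judged by direction and side of the threshold, list medians by the replicate spread, and numbers called by whether they changed. Ratios were judged by sign alone, which for several alternatives could not turn, so the total is not a rate of stability. With 2 libraries a group, p-values measure only the spread between these libraries, and Ccna1 has the lowest counts and least precision of the 10.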
